A study of Mus musculus with 16 samples.

Results

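Expression of 32 genes of sterol and fatty acid synthesis was followed in immortalized mouse embryonic fibroblasts (iMEFs) in which doxycycline induces deletion of Sdhc. The set was a list of gene symbols, matched by Entrez gene ID, and makes up 32 of the 24485 gene IDs measured. It holds 21 genes of the sterol branch and 11 of the fatty acid branch. The exp line had the genotype R26M2rtTA/+;TetOcre;Sdhcfl/fl and the ctl line R26M2rtTA/+;TetOcre;Sdhcfl/wt, so both lines carry the transactivator at Rosa26, the Cre transgene it drives, and at least 1 floxed copy of Sdhc, which encodes a membrane subunit of succinate dehydrogenase. Both lines were grown in low-glucose medium with fetal bovine serum, received doxycycline at 1 µg/mL, and were sampled at days 0, 5, 9, 12, 16 and 20. Each line had 3 biological replicates at day 16 and 1 library at each of the other days, which makes 16 mRNA libraries. There is 1 line per genotype, so genotype and line cannot be told apart, and the p-values measure the spread between libraries of these lines.

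Cholesterol is built from acetyl-CoA by way of mevalonate, the isoprenoid farnesyl pyrophosphate, squalene and lanosterol, which is then trimmed and reduced to cholesterol. Fatty acids are built from malonyl-CoA by fatty acid synthase and are then lengthened by elongases and given double bonds by desaturases. Most genes of both branches are known targets of the SREBP transcription factors, which the SCAP and INSIG proteins hold in the endoplasmic reticulum while sterols are plentiful.

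The libraries held 18121520 (exp day 5) to 42486438 (ctl day 16 replicate 2) reads in genes. Sdhc had 36.9, 32.8 and 26.5 FPKM in the exp day 16 replicates, against 50.5, 50.1 and 47.5 FPKM in those of ctl, while day 0 held 87.8 FPKM in exp and 90.5 FPKM in ctl. FPKM scales the fragments of a gene to its length and to the depth of the library. At day 16, replicates 2 and 3 of each line correlated at 0.995 in exp and 0.997 in ctl over 12533 genes, whereas replicate 1 correlated with them at 0.951 and 0.953 in exp and at 0.979 and 0.981 in ctl. Replicates 2 and 3 thus stood apart from replicate 1 in both lines, and results that rest on them are given with and without them. Each of the 12 fibroblast markers examined reached 1 FPKM in at least 1 library, with summed levels of 4825 to 5668 FPKM in exp and 4320 to 4570 FPKM in ctl. These sums hide differences in both directions. Over all days 5 of the 12 were higher in exp and 3 lower (limma, adjusted p under 0.05), against 19.2% and 16.7% of all genes. Col1a2 had 372.8 to 720.7 FPKM in exp and 80.4 to 103.2 FPKM in ctl, while Pdgfra had 15.2 to 31.0 FPKM in exp and 47.7 to 59.2 FPKM in ctl. The 5 mesothelial markers summed to 59.6 to 903 FPKM in exp and 85.6 to 121 FPKM in ctl, and the exp maximum was day 16 replicate 1. In ctl this sum was nearly all Msln, at 84.8 to 120.5 FPKM, against 15.3 to 131.4 FPKM in exp. Upk3b, Wt1, Lrrn4 and Gpm6a stayed under 1 FPKM in every ctl library. In exp they ran from 2.10 FPKM (Wt1) to 454.6 FPKM (Upk3b), so the sums understate how the lines differed in these markers. The 6 epithelial markers summed to 19.1 to 143 FPKM in exp and 7.59 to 15.0 FPKM in ctl, with Epcam and Cldn4 under 1 FPKM throughout. Adipocyte markers, 6 of 10 of them under 1 FPKM in every library, among them Adipoq and Plin1, summed to 18.8 to 49.5 FPKM in exp and 9.66 to 13.5 FPKM in ctl. All 5 endothelial markers and 5 of 6 macrophage markers stayed under 1 FPKM. The part of these other markers in the differences described next was not tested, and in bulk RNA fewer cells of a type and less RNA per cell cannot be told apart.

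Sterol genes were higher in the exp line. With each day compared with itself over all 16 libraries, 17 of the 20 sterol genes tested were higher in exp and 0 were lower (limma, Benjamini-Hochberg adjusted p under 0.05 over all 12559 genes tested). Of all genes tested, 19.2% were higher by the same rule and 16.7% were lower. The median exp minus ctl difference was 0.34 log2 over the sterol genes, against 0.01 over all genes. The fatty acid branch was mixed, with 6 of 11 genes higher, 1 lower and 4 not called, and a median of 0.25 log2. Differences are on the scale of log2(FPKM + 1) and carry their standard error (SE). One member, Hmgcs1 (gene ID 208715), the synthase that makes HMG-CoA, was listed at 0 in all 16 libraries, as were 4540 gene IDs, and was not tested. No mm9 coordinates were found for Hmgcs1 by symbol in GENCODE M1. Whether the gene was silent or was not counted cannot be told from these values. The other 31 members passed the filter of a mean of at least 1 FPKM, the lowest of them being Acss2 at 6.23 FPKM.

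**Figure D1:**
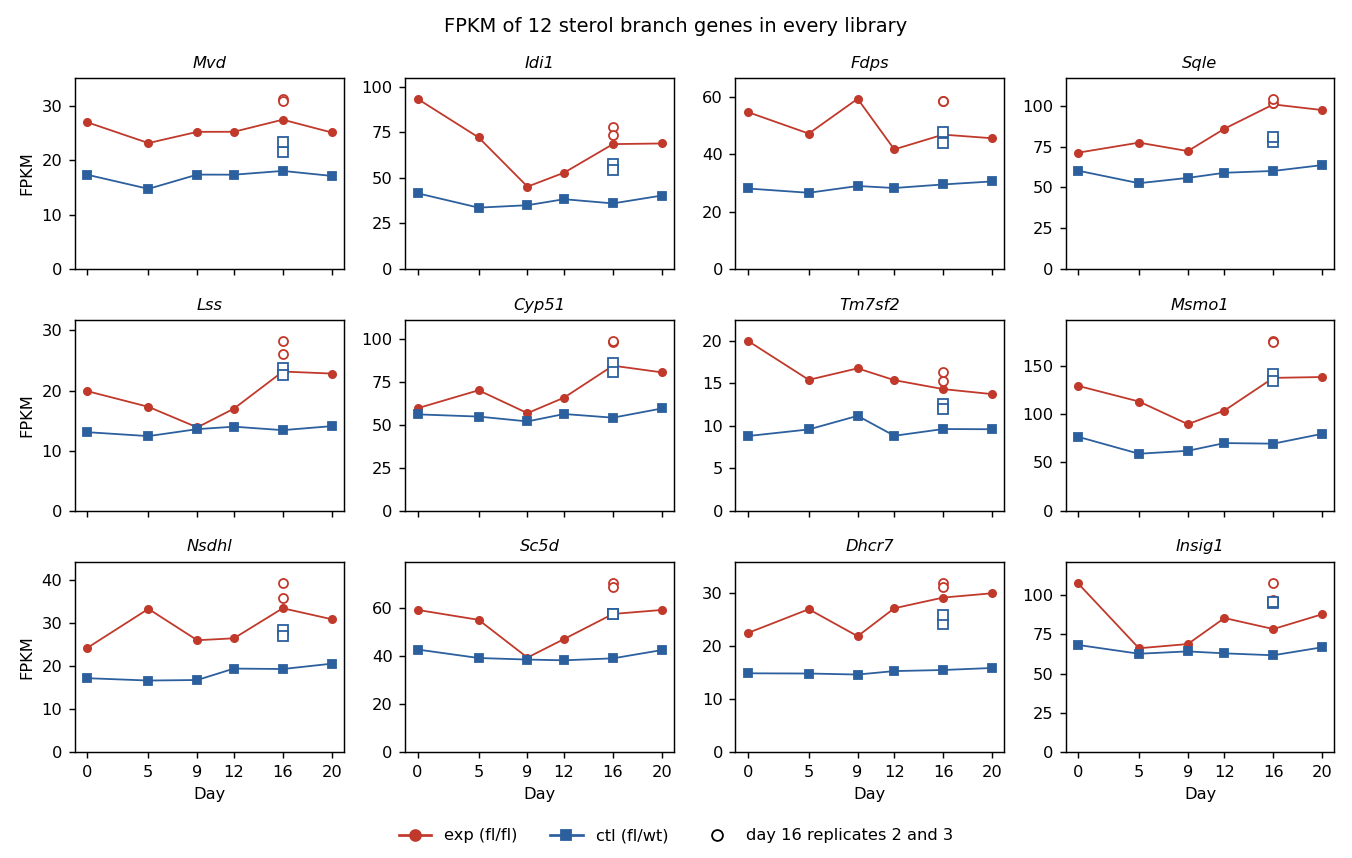
FPKM of 12 sterol branch genes by day of doxycycline in the exp line (circles) and the ctl line (squares), 1 point per library; open symbols are day 16 replicates 2 and 3, and lines join the other libraries. In each panel shown the open ctl squares lie above the 6 filled ones.

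The plot of sterol genes by day shows the exp points above the ctl points on most days. In the sentences that follow, FPKM values run through day 0, day 5, day 9, day 12, day 16 replicates 1, 2 and 3, and day 20. The early steps, up to mevalonate, its phosphates and their decarboxylation, held 4 tested genes, and all 4 were higher in exp. Acat2, the cytosolic enzyme that joins acetyl-CoA units, had 74.3, 81.0, 76.4, 66.8, 73.8, 80.3, 88.6 and 68.7 FPKM in exp, against 55.3, 53.7, 56.4, 59.3, 59.0, 71.8, 72.7 and 59.6 FPKM in ctl. The lines overlapped only where ctl day 16 replicates 2 and 3 passed exp days 12 and 20, and the difference was 0.32 ± 0.07 log2 (SE; limma adjusted p = 0.00282). Mvk, which phosphorylates mevalonate, had 25.2, 19.3, 22.1, 21.9, 26.3, 25.6, 27.2 and 24.4 FPKM in exp, against 20.0, 17.5, 20.5, 21.1, 22.8, 24.8, 25.8 and 21.6 FPKM in ctl. Its ranges overlapped widely, and the difference was 0.14 ± 0.04 log2 (adjusted p = 0.0249), a call lost in 4 alternatives (limma adjusted p 0.0519 to 0.1004). Pmvk, the next kinase, had 29.7, 28.1, 34.4, 28.4, 26.96, 33.1, 33.6 and 27.3 FPKM in exp, against 21.7, 22.4, 21.4, 23.2, 25.2, 29.1, 28.4 and 24.1 FPKM in ctl. All exp libraries lay above the ctl libraries other than day 16 replicates 2 and 3, with a difference of 0.30 ± 0.07 log2 (adjusted p = 0.00624). Mvd (gene ID 192156, chromosome 8 from 124957496 to 124967322, minus strand, mm9), which decarboxylates mevalonate diphosphate to the isoprenoid building block, had 27.1, 23.2, 25.3, 25.3, 27.5, 31.4, 31.0 and 25.2 FPKM in exp, against 17.3, 14.7, 17.4, 17.4, 18.1, 21.5, 23.4 and 17.1 FPKM in ctl. A single ctl library, day 16 replicate 3, reached above a single exp library, day 5. The difference was 0.54 ± 0.05 log2 (adjusted p = 1.6e-05), the smallest p of the sterol branch in this fit, and it was called in all alternatives tried. On the other strand Mvd overlaps the annotated gene Gm20388 over 9827 bases, and the strand setting of the counting is not given in the sources used here.

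The isoprenoid and squalene steps were higher in exp as well, in all 5 genes tested. Idi1 (gene ID 319554, chromosome 13 from 8884852 to 8891641, plus strand, mm9), which isomerizes the building block, had 93.4, 72.2, 45.1, 52.8, 68.5, 78.0, 73.3 and 68.8 FPKM in exp, against 41.5, 33.5, 34.9, 38.2, 35.9, 57.7, 54.2 and 40.2 FPKM in ctl. Every exp library lay above the 6 ctl libraries other than day 16 replicates 2 and 3, while these 2 passed exp days 9 and 12. Its difference of 0.70 ± 0.11 log2 (adjusted p = 0.000595) was the largest of the 31 members in this fit. Fdps, the farnesyl pyrophosphate synthase, had 54.9, 47.3, 59.5, 41.8, 47.0, 58.9, 58.6 and 45.7 FPKM in exp, against 28.1, 26.6, 28.9, 28.2, 29.5, 47.7, 44.0 and 30.6 FPKM in ctl. Ctl day 16 replicates 2 and 3 again stood alone within the exp range, and the difference was 0.65 ± 0.11 log2 (adjusted p = 0.000688). Fdft1, the squalene synthase, had 33.2, 37.4, 37.8, 36.4, 35.9, 40.1, 40.6 and 35.7 FPKM in exp, against 30.5, 31.97, 32.5, 33.3, 32.2, 38.0, 37.8 and 32.1 FPKM in ctl. Its lines overlapped, its difference was 0.14 ± 0.05 log2 (adjusted p = 0.0311), and the call was lost in 9 alternatives (adjusted p 0.0537 to 0.0728 with limma). Fdft1 overlaps Ctsb on the other strand over 769 bases. Sqle, the squalene epoxidase and an oxygen-dependent step, had 71.2, 77.4, 72.2, 86.0, 100.9, 101.8, 104.4 and 97.4 FPKM in exp, against 60.2, 52.5, 55.8, 58.9, 60.02, 77.9, 81.1 and 63.6 FPKM in ctl. The 3 exp libraries of day 16 and that of day 20 held the highest values, and the ctl values reached the exp range only in day 16 replicates 2 and 3. The difference was 0.47 ± 0.07 log2 (adjusted p = 0.000191). Lss, which closes the rings to lanosterol, had 19.9, 17.3, 13.9, 17.0, 23.2, 26.0, 28.3 and 22.8 FPKM in exp, against 13.1, 12.4, 13.6, 14.0, 13.4, 23.7, 22.6 and 14.1 FPKM in ctl. The exp day 9 value lay among the lower ctl values, and the difference was 0.40 ± 0.11 log2 (adjusted p = 0.0159). Lss overlaps the noncoding gene 4930483K19Rik on the other strand over 11268 bases.

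From lanosterol to cholesterol, 7 of the 8 genes tested were higher in exp. Cyp51, the lanosterol demethylase, had 59.5, 70.0, 56.7, 65.7, 84.3, 97.9, 98.9 and 80.4 FPKM in exp, against 56.0, 54.7, 51.9, 56.2, 54.1, 86.0, 80.5 and 59.4 FPKM in ctl. Its ranges overlapped and its difference was 0.29 ± 0.09 log2 (adjusted p = 0.0258); without day 5 and without day 20 the limma adjusted p was 0.0564 and 0.0642. Tm7sf2, a sterol C14 reductase, had 20.0, 15.4, 16.8, 15.4, 14.3, 15.3, 16.4 and 13.7 FPKM in exp, against 8.78, 9.56, 11.2, 8.81, 9.61, 12.6, 12.0 and 9.58 FPKM in ctl. This was the only sterol gene in which all 8 exp libraries lay above all 8 ctl libraries, a pattern that 5.5% of all genes tested had, and the difference was 0.59 ± 0.08 log2 (adjusted p = 0.000224). Tm7sf2 overlaps the gene 1110014N23Rik on the same strand over 532 bases, and how reads there were assigned is not given in the sources used here. Msmo1 (gene ID 66234, chromosome 8 from 67196936 to 67212589, minus strand, mm9), the C4 methyl oxidase, had 129.8, 113.5, 89.9, 104.1, 138.1, 176.7, 175.2 and 139.0 FPKM in exp, against 76.8, 59.1, 62.2, 70.2, 69.6, 142.3, 134.9 and 79.8 FPKM in ctl. The other 6 ctl libraries all fell below the lowest exp library, while ctl day 16 replicates 2 and 3 lay inside the exp range. The difference was 0.65 ± 0.13 log2 (adjusted p = 0.0029). Nsdhl, the C4 decarboxylating dehydrogenase, had 24.3, 33.4, 26.1, 26.5, 33.5, 36.0, 39.5 and 31.0 FPKM in exp, against 17.3, 16.7, 16.8, 19.5, 19.4, 28.5, 27.2 and 20.6 FPKM in ctl. Ctl day 16 replicates 2 and 3 lay among the low exp values, and the difference was 0.58 ± 0.08 log2 (adjusted p = 0.000239). Ebp, the sterol isomerase, had 32.2, 35.3, 41.6, 31.6, 32.7, 25.6, 27.5 and 30.8 FPKM in exp, against 23.2, 24.5, 25.0, 27.2, 27.8, 26.7, 26.0 and 27.1 FPKM in ctl. It was lowest in exp at day 16 replicates 2 and 3, the only exp libraries within the ctl range, and the difference was 0.29 ± 0.08 log2 (adjusted p = 0.0155). Nsdhl and Ebp lie on the X chromosome, and Xist, the RNA that silences one X, averaged 0.156 FPKM in exp and 70.8 FPKM in ctl; its part in these differences was not tested. Sc5d, the C5 desaturase, had 59.4, 55.2, 39.5, 47.2, 57.7, 70.7, 68.7 and 59.3 FPKM in exp, against 42.9, 39.3, 38.7, 38.4, 39.2, 57.6, 57.6 and 42.6 FPKM in ctl. The exp day 9 value fell among the lower ctl values, and the difference was 0.35 ± 0.09 log2 (adjusted p = 0.00854). Dhcr7 (gene ID 13360, chromosome 7 from 151009050 to 151034315, plus strand, mm9), the last reductase of one arm, had 22.5, 27.02, 21.9, 27.2, 29.2, 32.03, 31.2 and 30.0 FPKM in exp, against 14.9, 14.9, 14.7, 15.4, 15.6, 24.2, 25.9 and 15.9 FPKM in ctl. Here the 6 ctl libraries other than day 16 replicates 2 and 3 stayed within 14.7 to 15.9 FPKM, below all of exp, and the difference was 0.64 ± 0.09 log2 (adjusted p = 0.000302). Hsd17b7, the 3-keto reductase, had 13.5, 11.5, 8.01, 10.9, 12.8, 16.8, 16.4 and 13.9 FPKM in exp, against 11.2, 9.27, 9.79, 8.99, 9.61, 15.7, 14.5 and 10.5 FPKM in ctl. Its lines overlapped, the lowest value being exp day 9, and it did not pass the test at 0.19 ± 0.10 log2 (adjusted p = 0.166). The limma adjusted p was 0.0496 with the replicate number as a block, 0.0358 with a term for the replicate set and 0.0889 without day 16 replicates 2 and 3.

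Of the 3 genes that sense or move sterols, Stard4 was called higher in exp. Insig1, which retains the SREBP complex, had 107.3, 66.1, 68.7, 85.2, 78.2, 107.6, 96.8 and 87.6 FPKM in exp, against 68.2, 62.6, 64.1, 62.8, 61.6, 95.0, 95.3 and 66.7 FPKM in ctl. Its exp values at days 5 and 9 lay among those of ctl, and the difference was 0.27 ± 0.11 log2 (adjusted p = 0.066). Srebf2, which encodes the SREBP of the sterol branch, had 96.7, 105.1, 126.5, 133.3, 124.4, 101.7, 102.1 and 124.4 FPKM in exp, against 95.5, 96.5, 97.6, 101.0, 102.2, 105.4, 107.0 and 100.9 FPKM in ctl. Exp days 9, 12 and 20 and day 16 replicate 1 lay above all of ctl and the other 4 exp libraries within its range, with a difference of 0.17 ± 0.06 log2 (adjusted p = 0.055). Neither passed the threshold, although both had exp above ctl on 6 of 6 days. Without day 16 replicates 2 and 3 both were called, Insig1 at 0.33 log2 (limma adjusted p = 0.0139) and Srebf2 at 0.25 log2 (0.0198). Both were also called with a term for the replicate set (0.0083 for Insig1 and 0.0435 for Srebf2). The replicate number as a block gave 0.0136 for Insig1 and 0.0627 for Srebf2. Stard4, a carrier of cholesterol between membranes, had 46.4, 49.4, 28.3, 45.5, 53.2, 50.7, 50.3 and 54.7 FPKM in exp, against 39.3, 39.1, 35.0, 38.7, 37.7, 46.3, 45.7 and 38.2 FPKM in ctl. Its exp day 9 value was below all 8 ctl values and the rest of exp mostly above them. The difference was 0.22 ± 0.08 log2 (adjusted p = 0.0439), and the call was lost in 16 alternatives (limma adjusted p 0.0538 to 0.216), the replicate block (0.0569) and leaving out day 16 replicates 2 and 3 (0.0913) among them.

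**Figure D2:**
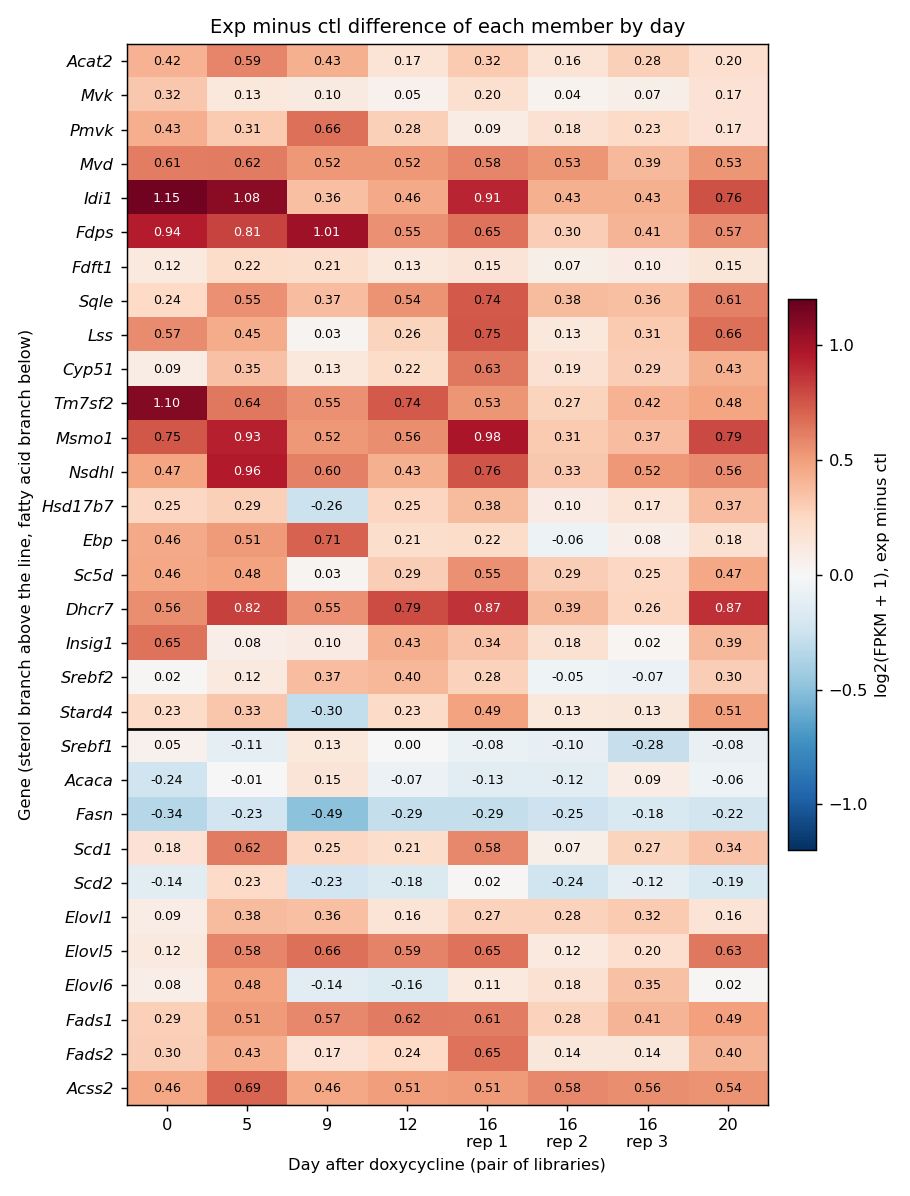
Heat map of exp minus ctl, in log2(FPKM + 1), for the 31 members tested (rows, by branch) at each day and for each day 16 replicate pair (columns). Sterol rows are positive nearly throughout and, for all tested but Pmvk, weaker in the replicate 2 and 3 pairs than in the replicate 1 pair, and Fasn is negative in every column.

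By day, 18 of 20 sterol genes had exp above ctl on 6 of 6 days, against 18.8% of all genes tested. The exceptions were Hsd17b7 and Stard4, which were below ctl at day 9 alone. The heat map of differences by day shows this as rows of one sign. The median sterol difference was 0.46 log2 at day 0 and 0.49 at day 5, then 0.37 on day 9, 0.35 on day 12 and 0.47 on day 20. The plot of branch medians shows each line on its own, as medians from each gene's mean over all libraries. In the single day 0 libraries, 8 sterol genes (Mvd, Idi1, Fdps, Lss, Tm7sf2, Msmo1, Dhcr7 and Insig1) exceeded 0.5 log2, against 17.3% of all genes. These day 0 values have no replicates and no test.

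The 3 day 16 replicates on their own called 0 of 20 sterol genes (limma, adjusted p under 0.05, 12533 genes; of all genes 6.1% were called, 3.1% higher and 3.01% lower). All 20 differences were nevertheless positive, with a median of 0.37 log2 and a range of 0.05 to 0.59, where 48.5% of all genes were positive. The lowest adjusted p values were those of Mvd at 0.50 ± 0.11 log2 (adjusted p = 0.0543), Sqle at 0.49 ± 0.12 log2 (adjusted p = 0.0735), Tm7sf2 at 0.41 ± 0.11 log2 (adjusted p = 0.0962), Nsdhl at 0.54 ± 0.15 log2 (adjusted p = 0.109) and Idi1 at 0.59 ± 0.18 log2 (adjusted p = 0.13). The 3 exp replicates lay above the 3 ctl replicates for 9 sterol genes, among them Mvd, Idi1, Sqle, Tm7sf2, Nsdhl and Dhcr7, against 15.5% of all genes. With the replicate number as a block, Mvd (limma adjusted p = 0.0246) and Tm7sf2 (0.0481) were called, and 2 fatty acid genes. This fit called 1023 of all genes (8.16%; 4.34% higher), a share near the 2 of 20. With a term for the replicate set, 12 sterol genes were called, all higher, where 2618 of all genes were called (20.9%; 10.6% higher). In replicates 2 and 3 alone 14 were, all higher, where 4326 of all genes were called (34.7%; 17.7% higher). These libraries are part of the 16 in the comparison over all days, so the fits share samples.

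**Figure D3:**
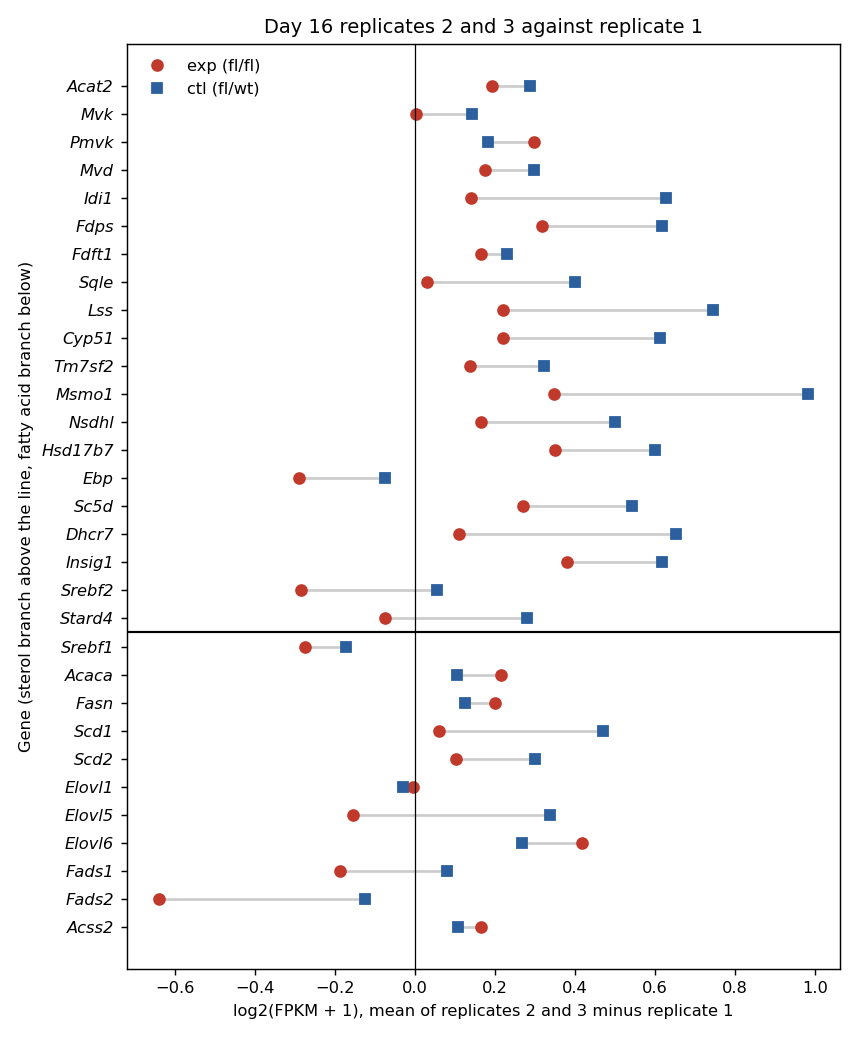
Day 16 replicates 2 and 3 minus replicate 1, in log2(FPKM + 1), for each member in exp and in ctl. In ctl the sterol genes reach 0.98 with a median of 0.45, and in exp their median is 0.17.

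The plot of replicate sets shows that sterol genes differed between the sets, by more in ctl than in exp; this difference between the lines was not tested. Replicates 2 and 3 minus replicate 1 had a sterol median of 0.17 log2 in exp and 0.45 log2 in ctl, and all genes had medians of 0.03 and 0.02. The shift reached at least 0.5 log2 for 0 sterol genes in exp (8.7% of all genes) and for 9 in ctl (5.76%), led by Msmo1 at 0.98, Lss at 0.75, Dhcr7 at 0.65 and Idi1 at 0.63. Both replicates exceeded the other 6 libraries of their line for 10 of 20 sterol genes in exp (14.6% of all genes) and for 19 of 20 in ctl, all but Ebp (23.8%). The sterol difference between the lines was 0.54 log2 for the pair of replicate 1 and 0.23 log2 for replicates 2 and 3. For Msmo1 the replicate 1 pair gave 0.98 and replicates 2 and 3 gave 0.34, for Lss 0.75 and 0.22, and for Mvd 0.58 and 0.46. Without day 16 replicates 2 and 3, the comparison over all days called 18 sterol genes, all but Hsd17b7 and Stard4, where 36.7% of all genes were called. Mesothelial markers moved with the sets too, summing to 903, 59.6 and 72.2 FPKM in exp replicates 1, 2 and 3 and to 104, 117 and 121 FPKM in those of ctl. The ctl sums were nearly all Msln. The 8 growth genes summed to 669, 566 and 582 FPKM in exp and to 597, 660 and 645 FPKM in ctl. Their part in the sterol shift was not tested. Over the other 6 libraries of each line the median range of a sterol gene was 0.50 log2 in exp and 0.21 log2 in ctl, against 0.51 and 0.23 over all genes. Within exp, day 9 was the lowest of 8 libraries for 8 sterol genes (16.4% of all genes), among them Idi1, Cyp51, Msmo1, Dhcr7 and Stard4.

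Within the fatty acid branch, the acetate-activating Acss2, 3 of 4 desaturases (Fads1, Fads2 and Scd1, not Scd2) and 2 of 3 elongases (Elovl1 and Elovl5, not Elovl6) were higher in exp, and the synthase Fasn was lower. Values are in the same order of libraries as above. Acss2 (gene ID 60525, chromosome 2 from 155343684 to 155411460, plus strand, mm9), which makes acetyl-CoA from acetate, had 6.32, 8.20, 6.88, 7.79, 7.51, 8.72, 8.37 and 6.81 FPKM in exp, against 4.32, 4.69, 4.72, 5.19, 4.98, 5.52, 5.36 and 4.38 FPKM in ctl. All 8 exp libraries lay above all 8 ctl libraries, as in 5.5% of all genes tested. The difference was 0.54 ± 0.05 log2 (limma adjusted p = 5.56e-06), the lowest p of the set. Acss2 overlaps Gss on the other strand over 22544 bases. Fads1 (gene ID 76267, chromosome 19 from 10257378 to 10271360, plus strand, mm9), the delta-5 desaturase of polyunsaturated fatty acids, had 143.5, 195.4, 195.7, 203.5, 202.3, 173.1, 182.1 and 193.5 FPKM in exp, against 117.6, 136.9, 131.3, 132.0, 132.1, 142.6, 136.7 and 137.3 FPKM in ctl. The lines did not overlap, the lowest exp library being day 0, and the difference was 0.47 ± 0.05 log2 (adjusted p = 2.9e-05). Elovl1, an elongase of very long chains, had 47.2, 48.9, 52.4, 48.3, 56.5, 54.9, 57.8 and 50.5 FPKM in exp, against 44.3, 37.4, 40.6, 43.0, 46.6, 45.0, 46.1 and 45.0 FPKM in ctl. Its lines did not overlap either, and the difference was 0.25 ± 0.04 log2 (adjusted p = 0.000744). Elovl5, the elongase of polyunsaturated chains, had 64.9, 91.1, 86.8, 89.5, 86.8, 76.7, 78.9 and 93.1 FPKM in exp, against 59.7, 60.5, 54.4, 59.1, 54.9, 70.7, 68.6 and 59.9 FPKM in ctl. The exp day 0 value alone lay within the ctl range, and the difference was 0.44 ± 0.08 log2 (adjusted p = 0.000892). Fads2, the delta-6 desaturase, had 104.6, 120.4, 118.7, 123.2, 171.2, 108.1, 110.8 and 140.3 FPKM in exp, against 85.0, 88.9, 105.4, 104.2, 108.7, 98.2, 100.8 and 105.8 FPKM in ctl. The highest library was exp day 16 replicate 1, and exp day 0 and replicate 2 lay just inside the ctl range, with a difference of 0.31 ± 0.09 log2 (adjusted p = 0.0163). Scd1, the stearoyl-CoA desaturase, had 111.8, 167.7, 129.1, 131.7, 169.0, 167.1, 185.9 and 152.5 FPKM in exp, against 98.8, 108.7, 108.7, 113.5, 113.1, 159.6, 154.3 and 120.1 FPKM in ctl. Its lines overlapped through exp day 0 and ctl day 16 replicates 2 and 3, and the difference was 0.31 ± 0.08 log2 (adjusted p = 0.00782). Fasn (gene ID 14104, chromosome 11 from 120667254 to 120685492, minus strand, mm9), the fatty acid synthase, had 60.8, 62.2, 55.1, 64.3, 66.1, 74.9, 77.1 and 62.5 FPKM in exp, against 77.3, 73.2, 77.8, 78.7, 80.9, 89.0, 87.5 and 73.1 FPKM in ctl. It was below ctl on 6 of 6 days, as 15.3% of all genes were, with overlap only through exp day 16 replicates 2 and 3, and the difference was -0.29 ± 0.05 log2 (adjusted p = 0.000891).

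**Figure D4:**
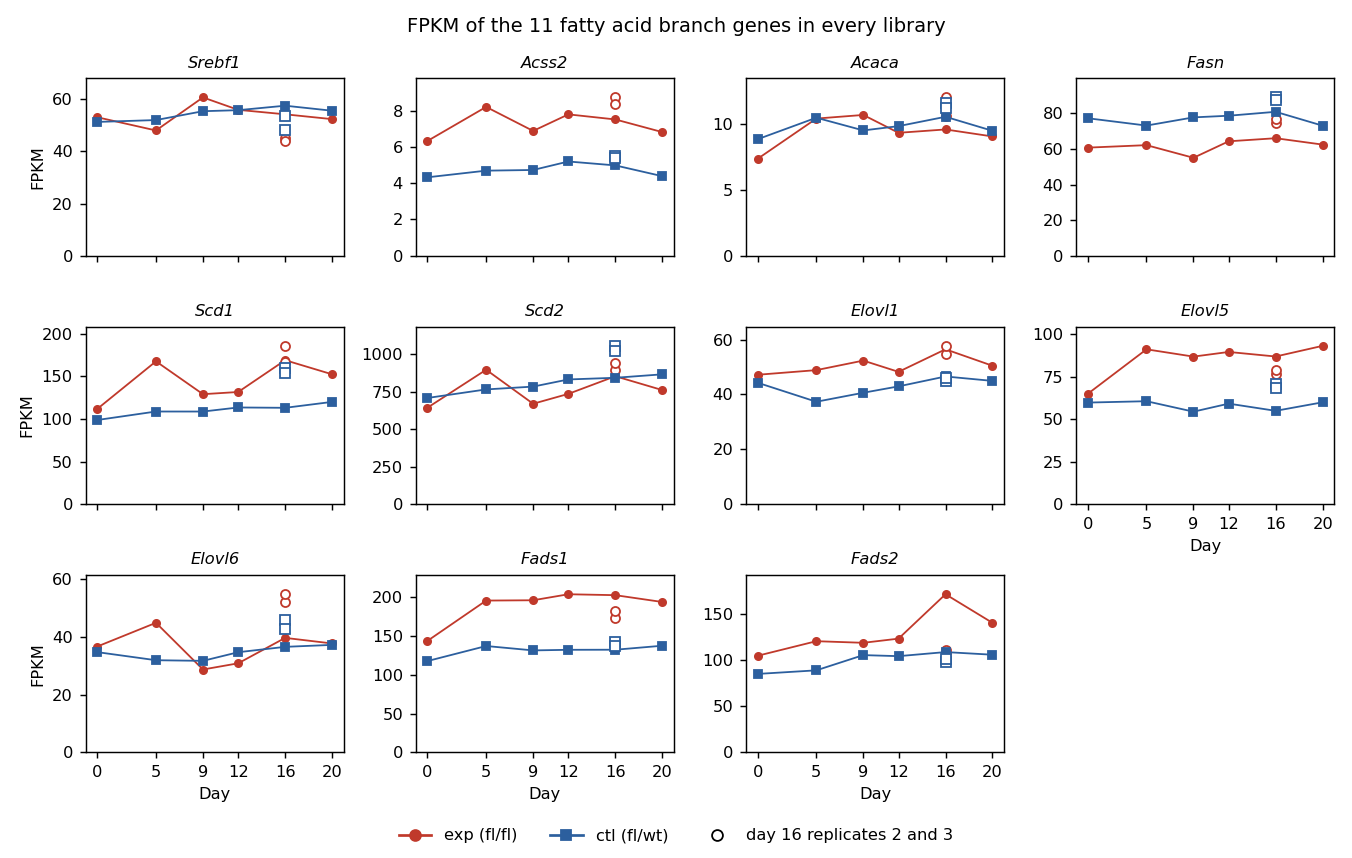
FPKM of the 11 fatty acid branch genes by day in the exp line and the ctl line, 1 point per library. Acss2, Fads1 and Elovl1 have every exp point above every ctl point, and Fasn has exp below ctl on each day.

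The 4 fatty acid genes not called were Scd2 (-0.11 ± 0.07 log2, adjusted p = 0.237), Elovl6, which extends palmitate (0.11 ± 0.09 log2, adjusted p = 0.342), Srebf1, which encodes the SREBP of fatty acid genes (-0.06 ± 0.06 log2, adjusted p = 0.473), and Acaca, which makes malonyl-CoA (-0.05 ± 0.05 log2, adjusted p = 0.531). As FPKM, a level per length, Scd2 was the highest member, at a mean of 798 in exp and 859 in ctl, and Acss2 the lowest of those tested, at 7.58 in exp and 4.89 in ctl. Scd1 and Scd2 are close paralogs, and how reads shared between them were assigned is not given in the sources used here. The plot of fatty acid genes by day sets the genes with separate lines beside those whose lines cross. At day 16 alone, 3 of 11 fatty acid genes were called higher by limma, where 3.1% of all genes were. They were Acss2 at 0.55 ± 0.08 log2 (adjusted p = 0.0186), Fads1 at 0.43 ± 0.08 log2 (adjusted p = 0.0345) and Elovl1 at 0.29 ± 0.05 log2 (adjusted p = 0.0367). Their day 16 levels were 8.20 ± 0.624 FPKM in exp and 5.28 ± 0.278 FPKM in ctl (SD, n = 3 each) for Acss2, 185.8 ± 15.0 FPKM in exp and 137.2 ± 5.26 FPKM in ctl (SD, n = 3 each) for Fads1 and 56.4 ± 1.45 FPKM in exp and 45.9 ± 0.807 FPKM in ctl (SD, n = 3 each) for Elovl1. With the replicate block the limma adjusted p of Fads1 was 0.0519. Leaving out single day 16 replicates gave 0 to 3 calls: Acss2 was lost without exp replicate 2 or 3 or ctl replicate 2 or 3, and Elovl1 and Fads1 without exp replicate 2 or 3 or any ctl replicate, with limma adjusted p up to 0.164. Replicates 2 and 3 minus replicate 1 had a fatty acid median of 0.06 log2 in exp and 0.11 log2 in ctl, and Fads2 moved furthest in exp, by -0.64 log2, where 7.01% of all genes moved by at most -0.5 log2.

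No member passed the test for a change with time. The difference between the slopes of the lines was called for 0 of 31 members and for 26 of 12559 genes (0.207%; limma, 1388 genes at an unadjusted p under 0.05). Per 20 days it ran from -0.60 to 0.29 log2 over the sterol genes and from -0.18 to 0.15 over the fatty acid genes. In simulated reads this test recovered 7.46% of changes of 1.5-fold and 58.2% of changes of 2-fold over 20 days. The simulation gave every gene the same dispersion, 0.01, and no difference between the day 16 replicate sets, so recovery in the real libraries may differ. Changes of such a size could therefore go uncalled. Per 20 days, the sterol median of the slope was 0.21 log2 within exp and 0.31 within ctl, and the fatty acid median was 0.26 within exp and 0.18 within ctl. These slopes use all day 16 replicates. Within ctl the sterol median of day 16 minus day 0 was 0.28 log2 over all of them, but 0.06 for replicate 1. Day 20 minus day 0 gave 0.08. Within exp the same medians were 0.14, 0.04 and 0.02 log2. The sterol slopes thus cannot be read as a steady rise with time. Of all genes, 4.95% were called within exp and 0.0% within ctl, where 203 genes had an unadjusted p under 0.05. Closest was Sqle within exp, at 0.61 ± 0.18 log2 (adjusted p = 0.0613) per 20 days. In single libraries of exp, 10 of 11 fatty acid genes were higher at day 5 than at day 0, with a median of 0.33 log2. Of all genes 43.8% were, with a median of -0.05. In ctl the same step was positive for 8 of 11, with a median of 0.06 log2, against 51.5% and 0.01 for all genes. Fads1 had 195.4 FPKM at day 5 and 143.5 FPKM at day 0 of exp, against 136.9 and 117.6 FPKM in ctl, and Elovl5 had 91.1 and 64.9 FPKM in exp, against 60.5 and 59.7 FPKM in ctl. Each of those days has 1 library per line and no test.

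Other genes of the same pathways were counted from lists outside the set, in the comparison over all days. Of 15 further sterol genes tested, 5 were higher in exp and 0 lower, with a median of 0.06 log2, where 19.2% of all genes were higher and 16.7% lower. Among the 5 were Erg28, a scaffold of the C4 demethylation enzymes, at 0.38 ± 0.07 log2 (adjusted p = 0.00106), and Lbr, which also reduces C14 of sterols, at 0.25 ± 0.07 log2 (adjusted p = 0.0143). Erg28 ranged over 43.5 to 69.7 FPKM in exp and 40.8 to 53.6 FPKM in ctl. Of 20 further fatty acid genes tested, 6 were higher and 3 lower, with a median of -0.01 log2, against the same 19.2% and 16.7%; the share lower is near that of all genes. Higher were Mid1ip1, an activator of acetyl-CoA carboxylase (0.82 ± 0.11 log2, adjusted p = 0.000145), Oxsm of mitochondrial fatty acid synthesis (0.52 ± 0.06 log2, adjusted p = 7.83e-05) and Hsd17b12, Hacd1, Hacd2 and Hacd3 of the elongation cycle (0.30, 0.36, 0.26 and 0.28 log2). Lower were Acly, the ATP citrate lyase (-0.29 ± 0.06 log2, adjusted p = 0.00211), Lpin1 (-0.35 ± 0.09 log2, adjusted p = 0.00741) and Elovl4 (-0.25 ± 0.07 log2, adjusted p = 0.0184). Acly had 43.4 to 65.6 FPKM in exp and 58.8 to 72.7 FPKM in ctl, and so shared its direction with Fasn.

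Of 10 tested genes of cholesterol efflux and the sterol receptor LXR, 2 were higher and 2 lower in exp, which is near the 19.2% and 16.7% of all genes. Abca1, which exports cholesterol, had 1.85 to 2.72 FPKM in exp and 7.44 to 13.1 FPKM in ctl, without overlap, a difference of -1.76 ± 0.08 log2 (adjusted p = 1.14e-08). Mylip, a ligase that degrades lipoprotein receptors, had 11.8 to 22.4 FPKM in exp and 7.20 to 9.01 FPKM in ctl, again without overlap, a difference of 0.96 ± 0.08 log2 (adjusted p = 3.61e-06). Smpdl3a was at 0.51 ± 0.09 log2 (adjusted p = 0.00103) and Soat1, which esterifies cholesterol, at -0.30 ± 0.05 log2 (adjusted p = 0.00118). Abca1 and Mylip, both known LXR targets, thus lay on opposite sides. At day 16 alone Abca1 was at -1.60 ± 0.14 log2 (adjusted p = 0.00334) and Mylip at 0.80 ± 0.12 log2 (adjusted p = 0.0198). Of the 8 growth genes, Ccna2, Bub1 and Cdk1 were higher, by 0.19, 0.18 and 0.21 log2.

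Promoter windows of 300 bases, most of them upstream of a gene's start, were taken from RefSeq on GRCm38.p6 for 17 of 21 sterol and 8 of 11 fatty acid members. They were searched on both strands for CCAAT, the NF-Y box, for GGGCGG, a GC box, and for TCACNCCAC, the core of the classical sterol regulatory element, each counted on its own so that matches could overlap. CCAAT was found in 16 of 17 sterol members, all but Acat2, and in 5 of 8 fatty acid members, and 41.1% of 27025 genes held it. GGGCGG was found in 16 of 17 sterol members and 4 of 8 fatty acid members, against 38.2% of genes. TCACNCCAC was found in Hmgcs1 alone, against 1.44% of genes. The windows of 3 sterol genes higher in exp, of Fasn, the gene lower in exp, and of Hmgcs1 follow, 5′ to 3′ on the gene's strand. Capitals mark CCAAT or its reverse complement and, in Hmgcs1, the TCACNCCAC match.
Idi1 (chr13:8885356-8885655, plus strand, GRCm38.p6): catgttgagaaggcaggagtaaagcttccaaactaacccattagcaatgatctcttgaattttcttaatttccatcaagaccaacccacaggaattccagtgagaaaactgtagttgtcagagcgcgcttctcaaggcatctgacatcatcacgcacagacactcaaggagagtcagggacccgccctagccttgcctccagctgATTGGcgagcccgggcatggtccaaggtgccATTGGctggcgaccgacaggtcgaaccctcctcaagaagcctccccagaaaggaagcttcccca
Msmo1 (chr8:64733529-64733828, minus strand, GRCm38.p6): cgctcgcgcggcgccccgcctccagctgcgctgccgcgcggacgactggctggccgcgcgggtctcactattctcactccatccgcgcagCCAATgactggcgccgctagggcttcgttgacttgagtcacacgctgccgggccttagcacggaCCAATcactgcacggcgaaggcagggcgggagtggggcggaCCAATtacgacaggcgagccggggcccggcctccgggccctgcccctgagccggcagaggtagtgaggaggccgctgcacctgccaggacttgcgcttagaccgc
Mvd (chr8:122443373-122443672, minus strand, GRCm38.p6): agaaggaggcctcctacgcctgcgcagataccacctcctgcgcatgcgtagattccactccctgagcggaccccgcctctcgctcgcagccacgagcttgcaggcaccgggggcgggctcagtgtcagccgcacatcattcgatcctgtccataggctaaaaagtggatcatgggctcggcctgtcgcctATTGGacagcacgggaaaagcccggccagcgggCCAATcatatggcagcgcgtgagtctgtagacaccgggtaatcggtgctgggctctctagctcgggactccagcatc
Fasn (chr11:120824498-120824797, minus strand, GRCm38.p6): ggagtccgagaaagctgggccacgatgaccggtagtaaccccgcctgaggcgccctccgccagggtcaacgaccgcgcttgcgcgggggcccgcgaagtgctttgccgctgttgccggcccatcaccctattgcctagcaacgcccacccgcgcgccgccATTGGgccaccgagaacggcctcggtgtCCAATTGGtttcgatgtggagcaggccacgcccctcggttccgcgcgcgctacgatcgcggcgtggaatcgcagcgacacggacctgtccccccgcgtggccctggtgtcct
Hmgcs1 (chr13:119690101-119690400, plus strand, GRCm38.p6): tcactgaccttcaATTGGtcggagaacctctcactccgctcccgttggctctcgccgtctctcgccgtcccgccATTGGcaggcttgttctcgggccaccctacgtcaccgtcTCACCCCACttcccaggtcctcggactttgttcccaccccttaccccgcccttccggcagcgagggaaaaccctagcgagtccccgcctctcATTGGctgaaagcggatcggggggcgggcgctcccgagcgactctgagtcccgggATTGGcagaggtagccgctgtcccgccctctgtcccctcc
Fasn holds as many CCAAT matches as Msmo1, 3 each, a pair of those in Fasn sharing bases, while Idi1 and Mvd hold 2 each and Hmgcs1 holds 4. A match of letters is a description of the window, and binding was not measured.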

How the data were processed

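The authors deposited FPKM values per gene, 1 file per library with 24485 gene IDs, and nothing else was analysed here. The submitters' processing notes name Bowtie2 2.2.3 and the mouse build mm9; no source used here names the counting tool, the annotation or the strand setting. FPKM are not counts, so limma 3.58.1 (R 4.3.3, statmod 1.5.0) was fitted to log2(FPKM + 1), a scale that understates changes of low genes. The filter was a mean of at least 1 FPKM over the libraries in a fit. Empirical Bayes moderation was robust and followed a mean-variance trend, and p-values were two-sided and adjusted by Benjamini-Hochberg over all genes tested at 0.05. The comparison over all days used day as a factor, the day 16 comparison 6 libraries, and the slopes 20 days as their unit with a spread shared by the lines. Line and day were read from the sample titles.

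A symbol was found for 24416 gene IDs. Coordinates of members on mm9 are from GENCODE M1, 1-based, and promoter windows are from RefSeq on GRCm38.p6. Whole reads were recovered from the FPKM of all 18966 genes with reads in at least 2 libraries, within 0.002 read, and the largest distance was 0.000668 read. They gave the depths and, with scaling factors from a trimmed mean of M values, a limma voom alternative. Over all days it called 17 sterol and 7 fatty acid genes, where 35% of all genes were called (18.8% higher). At day 16 it called 1 of 20 sterol genes, a share near the 6.54% of all genes called. A value of 0 may stand for up to 3 expected reads, by counting error alone, or for a gene the authors' pipeline did not count. The methods were tested on simulated data.

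At day 16 the deviations of same-numbered libraries from their line means correlated at 0.381, 0.272 and 0.333 for replicates 1, 2 and 3. Replicates 2 and 3 stood apart from replicate 1 in both lines, so these values cannot show pairing by number. Deviations of unlike numbers were not compared across the lines, and the labels do not say what a number shares. The block is given beside the day 16 results it changes. Alternatives were other pseudocounts, filters and scalings, the block, a term for the replicate set (chosen after seeing the data), and each replicate and day left out. The members and lists were chosen with earlier results of these data known. Values in every library are given for the members called in at least 1 of the 5 comparisons as designed, and, chosen after their values were seen, for Insig1, Srebf2 and Hsd17b7, which alternatives called over all days. Genes of other lists are named where called, at most 6 a list; 3 called genes of the further sterol list are not reported here.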

Additional observations from a re-analysis of the deposited data

Results flagged for a closer look

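Between day 16 replicates 2 and 3 and replicate 1, 4 members moved in opposite directions in the lines, both replicates lying on the same side of replicate 1 within a line. Srebf2 differed by -0.285 log2 in exp and 0.0547 log2 in ctl, and Stard4 by -0.0743 in exp and 0.280 in ctl. Elovl5 differed by -0.157 in exp and 0.339 in ctl, and Fads1 by -0.187 in exp and 0.0790 in ctl. These differences between the lines were not tested.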

How the results depend on the processing

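Over all days, the sterol genes called numbered 13 (without day 20) to 20 (with a term for the day 16 replicate set), against 17, and the fatty acid genes 7 under every alternative tried. Of all genes, 28.8% were called without day 20 and 41.7% with that term, against 35.9%. Of 576 values of called members, 545 kept their call, 31 lost it and 0 changed sign. The lost calls were those of Stard4, Fdft1, Mvk and Cyp51, and the cause was not tested. At day 16, 36 of 51 values kept their call and 15 lost it. The replicate block called 2 sterol genes at day 16, changed the calls of Fads1 at day 16 and of Hsd17b7, Insig1 and Stard4 over all days, and changed no other member's call in these comparisons.

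Sterol genes called at day 16, where the count was 0 and all 20 differences positive, were 1 with median-of-ratios rescaling, quantile normalization or limma voom, 12 with the term for the replicate set and 14 in replicates 2 and 3 alone, and 0 to 1 without single replicates. Fatty acid genes called at day 16 were 5 with that term, 9 in replicates 2 and 3 alone and 0 to 3 without single replicates, against 3. All genes called at day 16 were 493 with a mean of at least 5 FPKM, 2618 with the term, 4326 in replicates 2 and 3 alone and 197 to 1599 without single replicates, against 765. Median-of-ratios rescaling, quantile normalization and limma voom called 5.82%, 6.13% and 6.54% of all genes, against 6.1%.

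For the slope difference (26 genes) the count was 49 with quantile normalization, 101 with the term for the replicate set, 1, 8, 14, 12 and 0 without day 0, 5, 9, 12 and 16, 2 without day 16 replicates 2 and 3, 0 with day 16 averaged, and 2 to 35 without single replicates. Within exp (622 genes) it was 316 with limma voom, 9, 1381, 371 and 72 without day 0, 5, 12 and 16, 102 with day 16 averaged, and 249 to 466 without single replicates. There, 1 sterol gene was called with median-of-ratios rescaling and 1 without day 16 replicates 2 and 3. Within ctl it was 1 without day 16 replicates 2 and 3, 1 with day 16 averaged and 0 to 2 without single replicates, against 0. Median-of-ratios rescaling moved the median slope of all genes within exp to 0.02, against -0.09 log2. The days other than 16 have 1 library per line, which limits every statement on time.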
